A study of Mus musculus with 7 samples.

Results

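The 51 genes described here encode the glycosyltransferases that start, branch, extend and cap the sugar chains of mucins and other secretory glycoproteins, together with a chaperone that 1 of them needs. They comprise 16 sialyltransferases, 12 polypeptide GalNAc transferases, 6 fucosyltransferases, 6 enzymes or partners that build mucin cores or branches (core enzymes below), and 11 enzymes that extend or cap chains. They were picked by gene symbol out of 54446 genes in the count table, and all 51 were found.

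Polyadenylated RNA was sequenced from pancreatic spheroids, which are epithelial cultures grown in 3 dimensions from the mouse pancreas. The 4 post-caerulein libraries came from wild-type C57BL/6J mice that had been treated with caerulein, an analogue of the hormone cholecystokinin used to induce pancreatitis, and the 3 untreated libraries from wild-type C57BL/6J mice without it. Both groups grew in 1 medium that contains EGF, hydrocortisone, insulin and cholera toxin, so every value below is a level in culture. No source used here gives the dose of caerulein, the time since treatment, the age of the mice or whether libraries came from separate animals, and p-values therefore measure only the spread between these libraries. The series title speaks of an epithelial memory of resolved inflammation, and the comparison bears on which transcripts still differed in cultures from a pancreas that had been inflamed.

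Mucin-type O-glycosylation begins in the Golgi, where a GalNAc transferase links N-acetylgalactosamine to serine or threonine. Addition of galactose gives the core 1 structure, and addition of N-acetylglucosamine to core 1 gives the branched core 2 structure. Chains grow by alternating galactose and N-acetylglucosamine and end in sialic acid or fucose, and these ends form antigens such as sialyl Lewis x that lectins recognise. In the pancreas, changed sialylation and fucosylation of duct mucins are long known from work on pancreatic disease, and the CA19-9 antigen is a sialylated, fucosylated glycan.

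The libraries held between 34783738 and 46744497 counts. All 10 ductal epithelium markers, among them the keratin genes Krt19 and Krt7, were present. Their summed level was 14300 to 21400 CPM (counts scaled to library size) in post-caerulein and 13600 to 15500 CPM in untreated libraries. Single markers were less even than the sum. Cftr was at 39.11, 38.55 and 1.023 CPM in untreated 1 to 3 and 4.667 to 4.761 CPM in post-caerulein libraries. Sox9 was at 10.94, 12.95 and 61.67 CPM in untreated 1 to 3 and 37.1 to 51.74 CPM in post-caerulein libraries. Krt7 was lower and Cdh1 higher in every post-caerulein library than in any untreated one, and the groups overlapped for the other markers. Compared within their groups over all genes, untreated 3 and post-caerulein 4 lay farthest from the rest. Untreated 1 and 2 were close to each other, as were post-caerulein 2 and 3. Among tested transferase genes the median absolute log2 difference was 0.16 between untreated 1 and 2 and 0.50 between untreated 2 and 3. For post-caerulein 4 it was 0.459, 0.35 and 0.356 against post-caerulein 1, 2 and 3. For post-caerulein 1 it was not much smaller, at 0.336 and 0.367 against post-caerulein 2 and 3. Differences were therefore tested in 2 fits with edgeR (quasi-likelihood, p adjusted by Benjamini-Hochberg over all genes): a group fit, with the group as its only term, and a fit with a block term that sets untreated 3 and post-caerulein 4 (the smaller block) against the other 5 libraries (the larger block). A separate likelihood ratio fit with this block term, on the genes of the authors' deposited table, gave back its log2 fold changes to within 3.16e-08. The quasi-likelihood values below differ slightly from that table. No label says what the block stands for. In bulk RNA, fewer cells of a type and less RNA per cell cannot be told apart.

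In short, transcripts of the terminal sialyltransferases St8sia6 and St6galnac2, of the ganglioside sialyltransferase St3gal5 and of the core 2 branching enzyme Gcnt3 were higher in post-caerulein spheroids when the block was in the model, by 0.99 to 3.59 on the log2 scale. No enzyme that starts chains or builds core 1 was called, and no member was called lower in that fit. In the group fit none of the 38 members that passed the filter on low counts was called, against 0% of all 16438 genes tested. At an unadjusted p under 0.05 there were 10 of the 38, against 9.5% of all genes. DESeq2 called 4 members (3.12% of all genes), the likelihood ratio test 4 (2.1%) and limma-voom 0 (0%). With the block, 4 of the 38 members were called, or 10.5%, against 1.53% of all genes, and all 4 were called higher, a direction in which 0.651% of all genes were called, against 0.876% lower. Leaving out 1 library at a time moved this count, and the share of all genes called moved with it. It was 17 without untreated 3 (13.5% of all genes) and 15 without post-caerulein 4 (13% of all genes). In both settings the library left in the smaller block is taken up by the block term. Both therefore compare only the libraries of the larger block and are not separate checks. Omitting post-caerulein 1 gave 4 (0.807%), omitting post-caerulein 2 gave 1 (0.18%), and omitting post-caerulein 3 gave 0 (0.0186%). Omitting untreated 1 or untreated 2 also gave 0, with 0% of all genes called. In the group fit, 13 members were called without untreated 3, against 6.83% of all genes. These 38 include genes that passed the filter through 1 group, and the 51 were chosen with earlier results of these data known, so the share describes the members and tests nothing. The median log2 fold change of the 38 was 0.32 in both fits. Over all genes it was -0.02 in the group fit and 0.00 in the fit with the block. Of the 38, 30 were positive with the block (78.9%), against 49.4% of all genes. In 6 members the groups did not overlap, all of them higher in post-caerulein libraries (St8sia6, St6galnac2, St3gal5, Galnt1, Galnt18 and Gcnt4), or 15.8% of the 38 against 9.32% of all genes in either direction and 4.67% in this one.

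The promoters of St8sia6 and St3gal5, the called members with an entry in RefSeq's promoter table, and both windows of Gcnt4, chosen because the first holds AP-1 and STAT matches, are shown from 250 bases before to 50 bases after the annotated start (RefSeq, GRCm38.p6, 5′ to 3′ on the gene's strand). Capitals mark matches, on either strand, to the AP-1 motif (TGANTCA), the STAT motif (TTCNNNGAA), the TATA motif (TATAAA) and the GC box (GGGCGG), which share no base in these windows.
St8sia6, chr2:13793471-13793770, minus strand: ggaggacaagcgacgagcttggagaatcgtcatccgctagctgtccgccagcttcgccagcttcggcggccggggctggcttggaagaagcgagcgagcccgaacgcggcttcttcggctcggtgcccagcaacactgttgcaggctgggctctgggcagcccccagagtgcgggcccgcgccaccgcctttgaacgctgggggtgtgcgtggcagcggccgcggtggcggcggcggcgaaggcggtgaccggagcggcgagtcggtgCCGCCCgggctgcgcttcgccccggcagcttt
St3gal5, chr6:72097358-72097657, plus strand: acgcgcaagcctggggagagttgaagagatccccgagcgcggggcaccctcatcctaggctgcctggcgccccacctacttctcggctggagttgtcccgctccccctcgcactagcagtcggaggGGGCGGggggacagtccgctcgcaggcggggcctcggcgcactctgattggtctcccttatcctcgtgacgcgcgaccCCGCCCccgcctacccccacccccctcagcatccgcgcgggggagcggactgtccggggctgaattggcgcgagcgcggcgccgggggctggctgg
Gcnt4, the first of 2 annotated starts, chr13:96924094-96924393, plus strand: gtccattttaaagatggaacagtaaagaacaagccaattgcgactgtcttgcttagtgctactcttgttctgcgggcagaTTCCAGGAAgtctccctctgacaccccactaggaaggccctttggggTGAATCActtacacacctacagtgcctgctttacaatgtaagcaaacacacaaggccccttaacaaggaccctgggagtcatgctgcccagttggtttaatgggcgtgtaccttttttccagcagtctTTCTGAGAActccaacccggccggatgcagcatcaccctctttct
Gcnt4, the second of 2 annotated starts, chr13:96924463-96924762, plus strand: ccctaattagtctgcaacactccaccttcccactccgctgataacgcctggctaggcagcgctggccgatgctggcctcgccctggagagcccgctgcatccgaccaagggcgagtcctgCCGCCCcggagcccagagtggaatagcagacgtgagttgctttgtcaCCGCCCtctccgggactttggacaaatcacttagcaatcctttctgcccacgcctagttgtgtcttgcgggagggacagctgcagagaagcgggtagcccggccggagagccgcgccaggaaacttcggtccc

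The St8sia6 and St3gal5 windows are rich in G and C, at 72.0% and 72.7%, and hold 1 and 2 GC boxes. The first Gcnt4 window is at 49.7% G and C and holds 1 AP-1 and 2 STAT matches and no GC box. The second is at 62.7% and holds 2 GC boxes and no AP-1 or STAT match, and it is the one that contains the start of the gene as counted, at 96924689. The St3gal5 window also contains the start of its gene as counted, at 72097592. The St8sia6 window lies inside the gene and does not contain its start as counted, at 13794064. Of 32851 promoters of the same length, 35.7% held a GC box, 8.30% a STAT match, 7.81% an AP-1 match and 13.6% a TATA match. Of the 50 windows listed for 35 of the members, 29 held a GC box (58%), 4 a STAT match (8%), 2 an AP-1 match (4%) and 1 a TATA match (2%). A match describes the letters in the window only. Gcnt3 and St6galnac2 have no entry in the table.

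The most abundant members are compared per transcript length, in TPM. St3gal4, which sialylates galactose at the ends of chains and contributes to sialyl Lewis x, averaged 224 ± 47.6 TPM in post-caerulein and 359 ± 148 TPM in untreated libraries (SD, n = 4 and 3 throughout). B3gnt3, which extends core 1, stood at 289 ± 49.9 TPM in post-caerulein and 273 ± 25.1 TPM in untreated libraries. Gcnt3, a mucin-type enzyme that makes core 2 and core 4 branches, stood at 219 ± 60.8 TPM in post-caerulein and 125 ± 71.1 TPM in untreated libraries. In all, 26 of the 51 members averaged at least 10 TPM over the 7 libraries: 6 of 16 sialyltransferases, 7 of 12 GalNAc transferases, 4 of 6 fucosyltransferases, 5 of 6 core enzymes and 4 of 11 chain enzymes. At the other end, St6galnac1 had no read in any library, although it lies 70156 bases from St6galnac2 on chromosome 11.

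**Figure D1:**
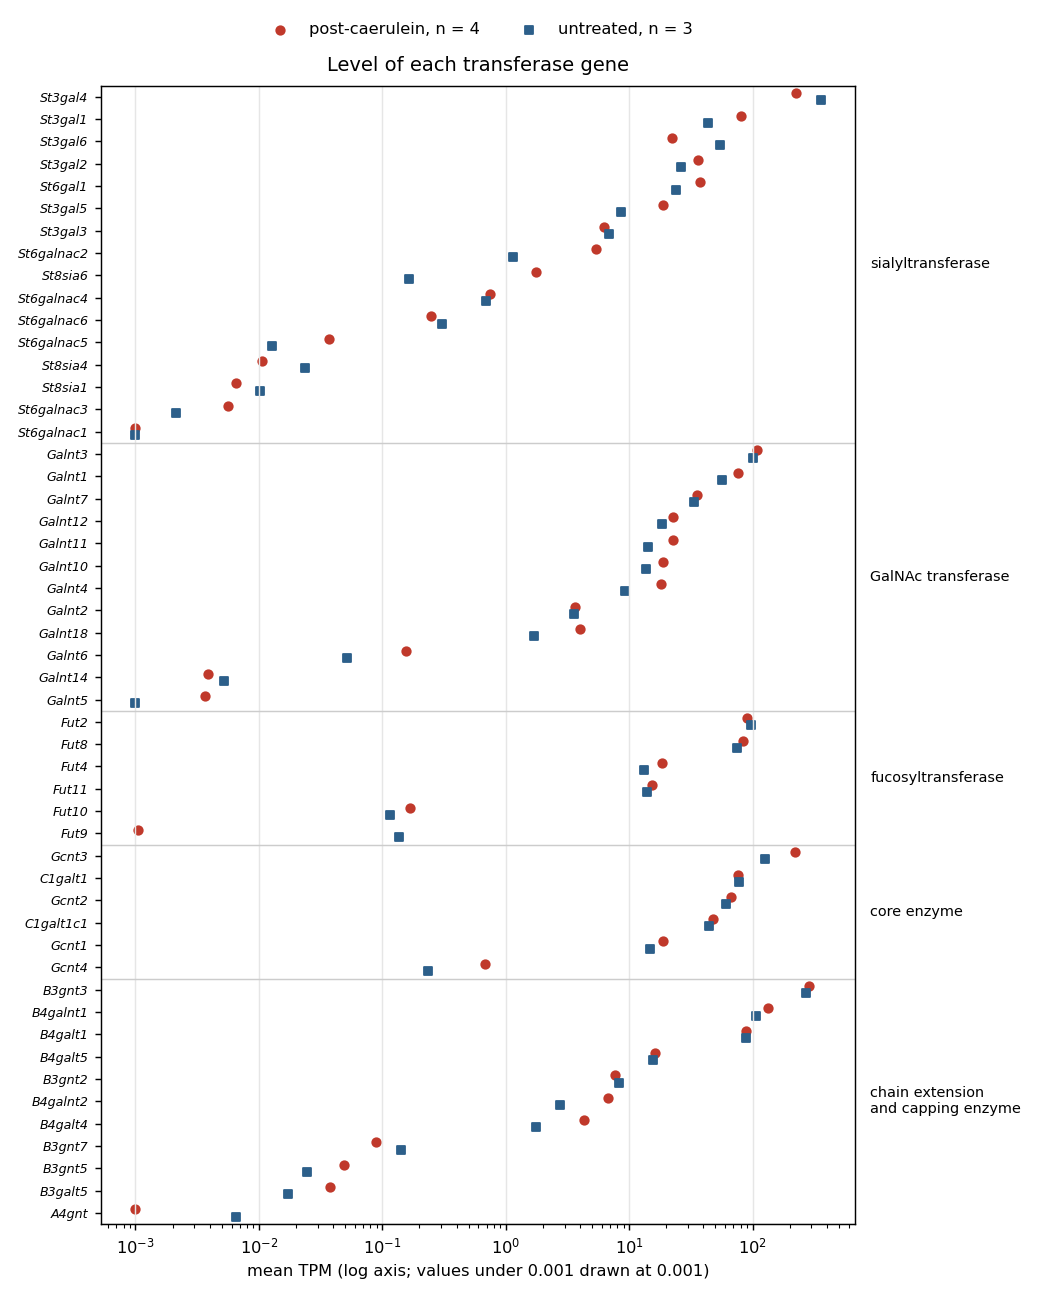
Mean TPM on a log axis for each of the 51 transferase genes, grouped by family, with circles for post-caerulein (n = 4) and squares for untreated libraries (n = 3). St8sia6, St6galnac2 and Fut9 show wide gaps. Fut9 rests on 2 untreated libraries.

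Sialyltransferases, the largest of the 5 families, had the most calls. Of 11 that passed the filter, 3 rose with the block and none was called lower. Over all genes, 0.651% were called higher in that fit and 0.876% lower. St8sia6 adds sialic acid to sialic acid, with a preference for O-glycans, and so makes disialyl ends (chromosome 2, 13651021 to 13794064, GRCm38). It was at 3.14, 5.41, 6.91 and 6.22 CPM in post-caerulein 1 to 4, against 0.347, 0.274 and 0.934 CPM in untreated 1 to 3. Every post-caerulein library lay above the highest untreated one, untreated 3. St8sia6 rose by 3.59 ± 0.43 with the block (log2 fold change ± SE, adjusted p = 0.0231 by edgeR quasi-likelihood), while the group fit gave 3.38 ± 0.53 with an adjusted p of 0.142. Within the larger block the log2 difference was 3.94, and within the smaller block 2.72. Its level was low even so, at 1.77 ± 0.57 TPM in post-caerulein and 0.165 ± 0.108 TPM in untreated libraries.

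St6galnac2 attaches sialic acid to the GalNAc of core 1 chains, which yields sialylated, unbranched O-glycans (chromosome 11, 116675303 to 116694868). Its values were 7.52, 7.69, 8.81 and 7.86 CPM in post-caerulein 1 to 4 and 1.16, 1.65 and 2.27 CPM in untreated 1 to 3. The post-caerulein libraries lay close together and far above all untreated ones, with a ratio of means of 4.71. St6galnac2 rose by 2.29 ± 0.24 with the block (adjusted p = 0.0203, edgeR quasi-likelihood), and had 2.23 ± 0.27 with an adjusted p of 0.137 in the group fit. Within the blocks its log2 difference was 2.52 in the larger and 1.79 in the smaller. A second annotated gene of the same symbol shares 383 exonic bases with it, and an opposite-strand gene 496, out of 3643, so reads there may have been left out or shared. That second entry held 9, 9, 12 and 22 reads in post-caerulein and 1, 3 and 3 reads in untreated libraries.

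St3gal5 makes GM3, the first sialylated glycolipid from which other gangliosides are built, and so acts on lipids rather than mucins. It was at 17.4, 22, 23.7 and 11.1 CPM in post-caerulein 1 to 4 and 10.2, 10.7 and 4.52 CPM in untreated 1 to 3. The groups did not overlap, but post-caerulein 4 was only just above untreated 2. St3gal5 rose by 1.09 ± 0.15 with the block (adjusted p = 0.0273, edgeR quasi-likelihood), against 1.13 ± 0.37 and an adjusted p of 0.360 in the group fit. The log2 difference was 1.00 in the larger block and 1.30 in the smaller.

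These calls rest on few libraries. When untreated 1 and 2, and post-caerulein 2 and 3, were each added into 1 library, the adjusted p of St8sia6, St6galnac2 and St3gal5 in the fit with the block were 0.422, 0.422 and 0.559 (edgeR quasi-likelihood). All 3 calls were also lost without untreated 1, untreated 2 or post-caerulein 3, and those of St8sia6 and St3gal5 without post-caerulein 2, with adjusted p between 0.0625 and 0.223 over these settings, while the log2 fold change of each kept its sign.

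**Figure D2:**
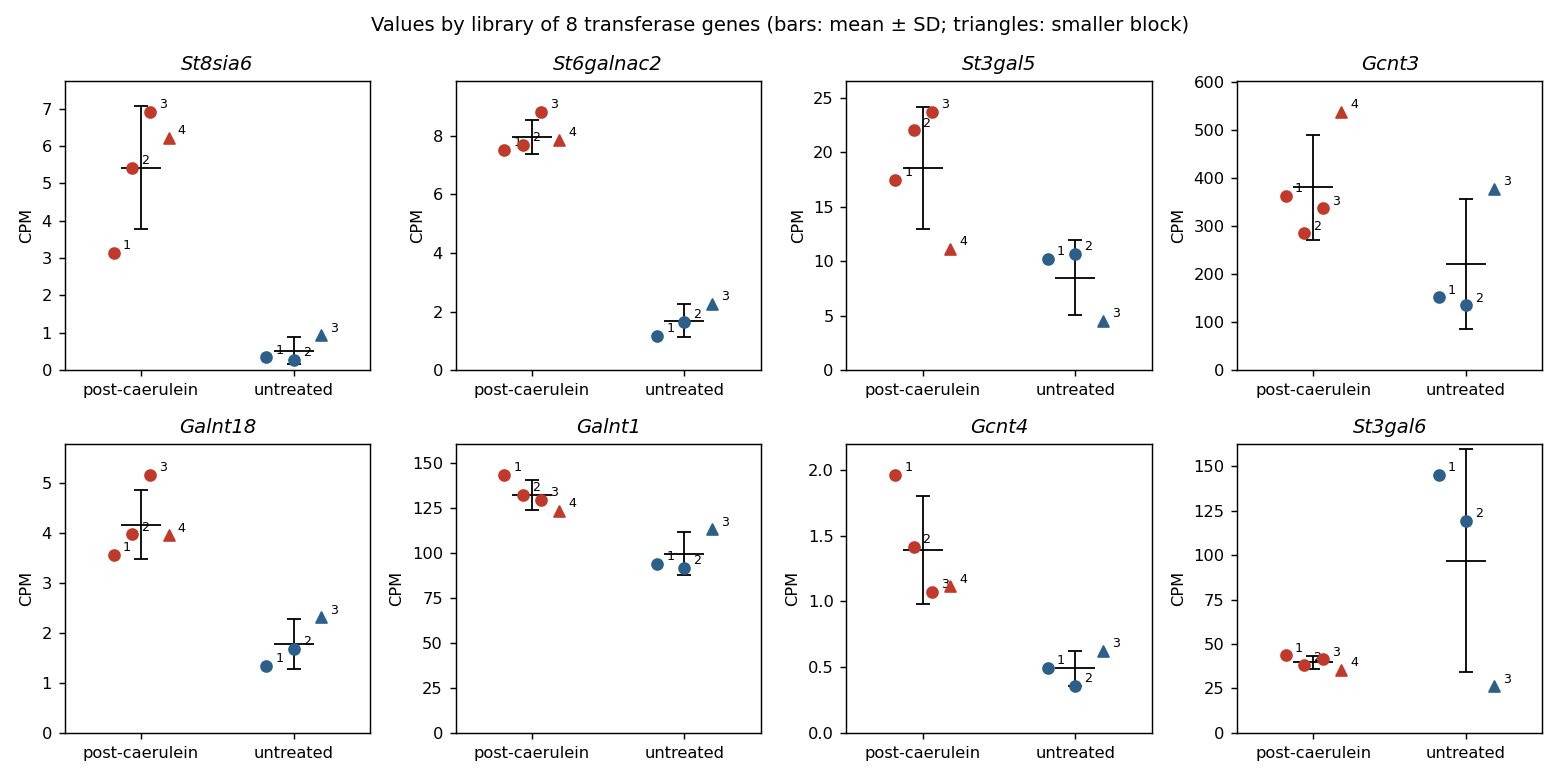
CPM by library for 8 transferase genes, post-caerulein on the left and untreated on the right, with numbers for replicates, triangles for the smaller block (post-caerulein 4 and untreated 3) and bars for mean ± SD. The groups do not overlap for St8sia6, St6galnac2, St3gal5, Galnt18, Galnt1 and Gcnt4. For Gcnt3 and St3gal6, untreated 3 lies apart from untreated 1 and 2, at 378 and 26.2 CPM.

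The sialyltransferases that act on galactose of glycoproteins showed both directions, and none was called. St3gal4 was at 188.5, 218, 212 and 138 CPM in post-caerulein 1 to 4 and 337, 394 and 174 CPM in untreated 1 to 3. Its log2 fold change with the block was -0.68 ± 0.13 with an adjusted p of 0.0532 (edgeR quasi-likelihood), just past the threshold, and limma-voom with the block gave 0.0492. St3gal6, which also caps chains for sialyl Lewis x, was at 43.8, 38.3, 41.3 and 35.4 CPM in post-caerulein and 145, 119.5 and 26.2 CPM in untreated libraries. Untreated 3 was lower than every post-caerulein library, so the log2 difference was -1.68 in the larger block and 0.43 in the smaller. Of the exonic bases of St3gal6, 36.3% overlap those of Dcbld2 on the opposite strand, and the strand setting of the counting is not given in the sources used here.

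St3gal1, which caps core 1 and thereby stops its extension, was at 280, 185.5, 191 and 104 CPM in post-caerulein 1 to 4 and 97.6, 90.3 and 122 CPM in untreated 1 to 3. Post-caerulein 4 lay among the untreated values, and the log2 difference was 1.20 in the larger block but -0.23 in the smaller. St6gal1, the main enzyme that sialylates N-glycans in the other linkage, was at 76.9, 68.5, 66.0 and 83.6 CPM in post-caerulein 1 to 4 and 27.9, 30.6 and 84.8 CPM in untreated 1 to 3. Untreated 3 was as high as the highest post-caerulein library, and the log2 difference was 1.26 in the larger block and -0.02 in the smaller. St3gal2, a second enzyme acting on core 1 and on gangliosides, was at 67.0 ± 13.5 CPM in post-caerulein and 49.6 ± 23.6 CPM in untreated libraries. St3gal3 and the low St6galnac4 and St6galnac6 had adjusted p of 0.673 or more in the fit with the block (edgeR quasi-likelihood).

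St3gal4 held 46.9%, 55.5%, 54.8% and 47.9% of the family's summed TPM in post-caerulein 1 to 4, and 69.4%, 74.6% and 54.9% in untreated 1 to 3. St3gal1 held 25.2%, 17.1%, 17.8% and 13% in post-caerulein libraries, and 7.26%, 6.18% and 13.9% in untreated ones. Untreated 3 lay within or next to the post-caerulein range in both shares. St6galnac2 and St8sia6 held at most 1.56% and 0.592% of the family in any library.

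The GalNAc transferases start the chains. All 9 tested had a positive log2 fold change in both fits. None was called, against 1.53% of all genes with the block, a share at which so few genes may hold no call. Over all genes, 47.1% were positive in the group fit and 49.4% with the block. Within each block, 7 of the 9 were positive. With the block, Galnt2 (0.03 ± 0.18), Galnt3 (0.115 ± 0.137) and Galnt7 (0.084 ± 0.154) had changes smaller than their SE. Galnt3, which with Galnt1 was the most abundant of them, averaged 105.5 TPM over the 7 libraries, and was at 171.5 ± 21.0 CPM in post-caerulein and 160 ± 23.1 CPM in untreated libraries. Galnt1, a broadly expressed member, was at 143, 132, 129 and 123 CPM in post-caerulein 1 to 4 and 93.8, 91.8 and 113 CPM in untreated 1 to 3. The groups did not overlap, but by a small margin, and the log2 fold change with the block was 0.42 ± 0.11 (adjusted p = 0.100, edgeR quasi-likelihood). Galnt18, a member of lesser known substrates, was at 3.56, 3.97, 5.16 and 3.95 CPM in post-caerulein 1 to 4 and 1.34, 1.69 and 2.31 CPM in untreated 1 to 3. It was higher in all post-caerulein libraries, with a log2 fold change of 1.27 ± 0.26 with the block and an adjusted p of 0.0628 (edgeR quasi-likelihood).

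Galnt7, which prefers peptides that already carry GalNAc, was at 35.7 ± 5.65 TPM in post-caerulein and 33.6 ± 6.34 TPM in untreated libraries. Galnt4 was at 68.5 CPM in post-caerulein 1 and between 21.5 and 33.3 CPM in post-caerulein 2 to 4, against 11.8 to 23.7 CPM in untreated libraries. The remaining initiators, Galnt2, Galnt10, Galnt11 and Galnt12, had log2 fold changes of 0.03 to 0.74 with the block. Of Galnt2, 93.7% of the exonic bases also belong to an overlapping annotated gene on the same strand, so its level may be understated.

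Among core enzymes 1 of 6 was called with the block, against 1.53% of all genes. C1galt1, which makes core 1, was at 187 ± 34.8 CPM in post-caerulein and 191.5 ± 30.7 CPM in untreated libraries. Its chaperone gene C1galt1c1 (Cosmc) was at 28.3 ± 3.43 CPM in post-caerulein and 26.1 ± 1.24 CPM in untreated libraries. Neither differed by more than the spread between libraries in either fit, with log2 fold changes of -0.07 ± 0.11 and 0.12 ± 0.12 with the block. Gcnt2, the I-branching enzyme, was at 186 ± 11.9 CPM in post-caerulein and 172 ± 11.0 CPM in untreated libraries, with an adjusted p of 0.579 with the block (edgeR quasi-likelihood).

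Gcnt3 (chromosome 9, 70031496 to 70038088) was at 364, 286, 337.5 and 538 CPM in post-caerulein 1 to 4 and 152, 135 and 378 CPM in untreated 1 to 3. The groups overlapped, because untreated 3 was above post-caerulein 1, 2 and 3, yet within each block the post-caerulein libraries were higher. Gcnt3 rose by 0.99 ± 0.17 with the block (log2 fold change ± SE, adjusted p = 0.0422 by edgeR quasi-likelihood), while it had 0.78 ± 0.40 with an adjusted p of 0.615 in the group fit. The log2 difference was 1.19 in the larger block and 0.51 in the smaller. The call was lost with a stricter filter on low counts (0.0519), with close pairs summed (0.603), and when any of untreated 1, untreated 2 and post-caerulein 1, 2 or 3 was left out (0.0683 to 0.281).

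Per length, Gcnt3 held 45.8%, 45%, 49.4% and 61.4% of the summed TPM of the 6 core genes in post-caerulein 1 to 4, and 29.7%, 28.5% and 52.8% in untreated 1 to 3. That sum includes Gcnt2, the I-branching enzyme. C1galt1 held 20.6%, 20.5%, 18.8% and 11.9% in post-caerulein libraries and 29.6%, 30.2% and 15.4% in untreated ones. Post-caerulein 4 and untreated 3 had the highest Gcnt3 share of their groups and the lowest C1galt1 share, and shares of 1 sum are bound to move against each other. Gcnt4, a core 2 family member of low level, was at 1.96, 1.42, 1.07 and 1.11 CPM in post-caerulein 1 to 4 and 0.495, 0.359 and 0.623 CPM in untreated 1 to 3. Its groups did not overlap, and its log2 fold change with the block was 1.49 ± 0.35 (adjusted p = 0.0860, edgeR quasi-likelihood). Gcnt1, the leukocyte-type core 2 enzyme, was at 36.2 ± 8.02 CPM in post-caerulein and 28.2 ± 6.15 CPM in untreated libraries.

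**Figure D3:**
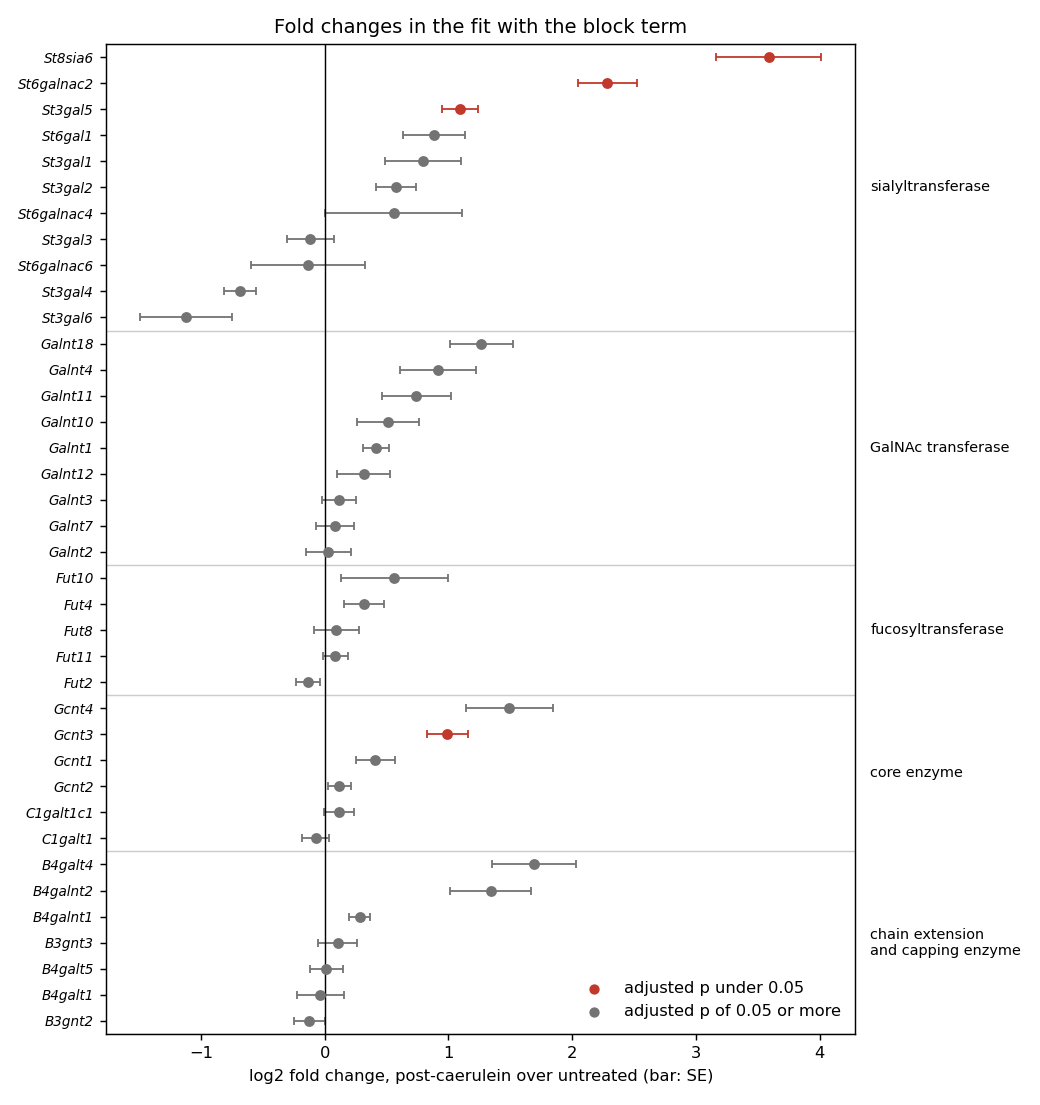
Log2 fold change of post-caerulein over untreated libraries with SE, in the fit with the block, for the 38 tested transferase genes by family. Red points have an adjusted p under 0.05: St8sia6 at 3.59, St6galnac2 at 2.29, St3gal5 at 1.09 and Gcnt3 at 0.99.

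Of 5 tested fucosyltransferases, 0 were called in either fit, against 1.53% of all genes with the block. At that share, a count of 0 among so few genes tells nothing about the family. Fut2, the secretor enzyme that makes the H antigen on mucins, was at 97.2, 113, 115 and 101.2 CPM in post-caerulein 1 to 4 and 126, 114.5 and 108 CPM in untreated 1 to 3. Fut8, which fucosylates the core of N-glycans, was at 83.0 ± 18.9 TPM in post-caerulein and 74.8 ± 5.57 TPM in untreated libraries. Fut4, which makes Lewis x, was at 10.4 CPM in post-caerulein 4 and 10.7 CPM in untreated 3, against 29.9 to 41.6 CPM in post-caerulein 1 to 3 and 25.0 to 28.5 CPM in untreated 1 and 2. Both libraries of the smaller block were the low ones. Fut10 and Fut11 had adjusted p of 0.573 and 0.727 with the block (edgeR quasi-likelihood). Fut9, another Lewis x enzyme, had 44 and 42 reads in untreated 1 and 2 and 0 in untreated 3, against 0, 0, 0 and 1 read in post-caerulein 1 to 4. It did not pass the filter, and the reads came from a close pair of libraries only.

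Of 7 tested chain enzymes, 0 were called in either fit, against 1.53% of all genes with the block. Here too the list is too short for a count of 0 to tell anything about the family. B4galt4, a galactosyltransferase, was at 2.13, 4.36, 3.86 and 8.60 CPM in post-caerulein 1 to 4 and 0.891, 0.801 and 4.27 CPM in untreated 1 to 3. The groups overlapped, but the post-caerulein libraries were higher within each block, with a log2 fold change of 1.69 ± 0.34 with the block (adjusted p = 0.0635, edgeR quasi-likelihood). B4galnt2, which makes the Sda antigen of gut mucins, was at 0.954, 1.78, 2.38 and 13.7 CPM in post-caerulein 1 to 4 and 0.693, 0.801 and 4.43 CPM in untreated 1 to 3. Most of its signal lay in post-caerulein 4 and untreated 3, and the log2 fold change with the block was 1.34 ± 0.33 (adjusted p = 0.0943, edgeR quasi-likelihood).

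B4galnt1, which builds GM2 and GD2 from the products of St3gal5 and St8sia1, was at 133 ± 18.5 TPM in post-caerulein and 106 ± 12.3 TPM in untreated libraries. Of its exonic bases, 29.9% overlap Slc26a10 on the opposite strand. B4galt1, the main galactosyltransferase of N-acetyllactosamine, was at 153 ± 46.9 CPM in post-caerulein and 152 ± 23.8 CPM in untreated libraries. B3gnt2, a polylactosamine enzyme, was at 10.3 ± 0.883 CPM in post-caerulein and 11.1 ± 1.14 CPM in untreated libraries. An overlapping annotated gene on the same strand shares 73.6% of its exonic bases, so its level may be understated too. B4galt5, which makes lactosylceramide, had a log2 fold change of 0.015 ± 0.13 with the block. B3gnt3 had 0.11 ± 0.16 in that fit.

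The 13 members that did not pass the filter were St6galnac1, St6galnac3, St6galnac5, St8sia1, St8sia4, Galnt5, Galnt6, Galnt14, Fut9, B3gnt5, B3gnt7, B3galt5 and A4gnt. A4gnt, which makes the terminal N-acetylglucosamine of gastric gland mucin, had 1 read in all, in untreated 2. B3galt5, which makes the type 1 chains of Lewis a antigens, had 5, 2, 7 and 0 reads in post-caerulein and 3, 1 and 1 reads in untreated libraries. St8sia1, the GD3 synthase, had 4 reads in post-caerulein and 5 in untreated libraries. Galnt6 had 2, 12, 9 and 18 reads in post-caerulein and 2, 4 and 5 in untreated libraries. Apart from Fut9, no level among the 13 passed 0.378 CPM, and 3 reads corresponded to 0.0631 to 0.0841 CPM, so that these genes were at or near the limit of this depth.

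Within the blocks, the log2 difference was positive in 30 of 38 tested members in the larger block (post-caerulein 1 to 3 over untreated 1 and 2) and in 20 of 38 in the smaller (post-caerulein 4 over untreated 3). It was positive in both blocks for 17, negative in both for 5 and of opposite sign for 16. The smaller block has 1 library a group, so its differences have no replicate check. Fitted alone, the larger block gave calls for 17 of 39 tested members, 14 higher and 3 lower, against 13.8% of all genes. Its only untreated libraries are the close pair untreated 1 and 2, and post-caerulein 2 and 3 are close as well. The spread between libraries may thus be understated there. No member was called in the fit with the block when close pairs were summed.

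**Figure D4:**
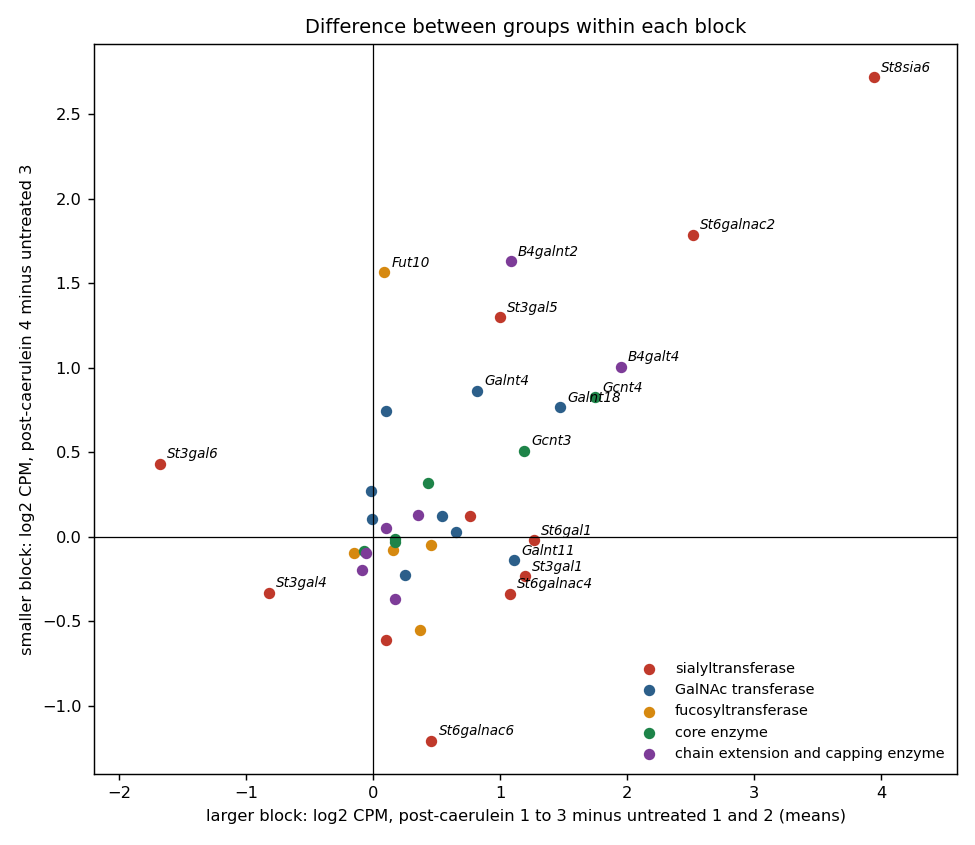
Log2 CPM differences within the blocks for the 38 tested transferase genes: larger block on the horizontal axis, smaller block on the vertical, coloured by family. St8sia6 and St6galnac2 lie at the upper right, and St3gal6 has opposite signs, at -1.68 and 0.43.

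In the authors' deposited table, which lists 35 of the members, 14 had a false discovery rate under 0.05, or 40.0% against 7.88% of its 12983 genes. Of the 14 in the authors' deposited table, 12 were higher (34.3% of 35, against 4.49% of all) and 2 lower (5.71%, against 3.39%). The authors' deposited table gives St8sia6 a log2 fold change of 3.61, St6galnac2 2.30, B4galt4 1.71, Gcnt4 1.5, B4galnt2 1.35, Galnt18 1.28, St3gal5 1.11 and Gcnt3 1.00. The others called there are Galnt4, St6gal1, St3gal1 and St3gal2 as higher, and St3gal4 (-0.67) and St3gal6 (-1.10) as lower, in the authors' deposited table. The likelihood ratio test behind that table and the quasi-likelihood test used here start from the same counts and libraries, and the other 10 of these 14 were not called here.

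Genes around the transferases were listed by role. Of 23 tested genes of sugar nucleotide synthesis and transport 0 were called in either fit, against 0% of all genes in the group fit and 1.53% with the block. Their median log2 fold change was 0.01 with the block. Fuk had the lowest adjusted p of this list with the block, 0.0563 (edgeR quasi-likelihood), with a log2 fold change of -0.477. Its false discovery rate in the authors' deposited table was 0.039. Cmas, which activates sialic acid for all sialyltransferases, was at 137 ± 4.65 CPM in post-caerulein and 135 ± 8.74 CPM in untreated libraries. Gfpt1, which commits sugar to the hexosamine pathway, was at 600 ± 72.4 CPM in post-caerulein and 760 ± 161 CPM in untreated libraries (adjusted p = 0.154 with the block, edgeR quasi-likelihood). Of 12 tested genes that trim glycans or modify sialic acid, 0 were called in either fit, against the same shares of all genes. Neu1, the lysosomal sialidase, was at 106.5 ± 3.68 CPM in post-caerulein and 130 ± 8.95 CPM in untreated libraries. Of 18 tested relatives outside the 51, 0 were called in either fit, again against these shares. With shares this low, a count of 0 in lists this short tells nothing about the lists. The most abundant were the galactosyltransferases B4galt6, at 135 ± 37.1 TPM in post-caerulein and 115 ± 25.2 TPM in untreated libraries, and B4galt3, at 57.7 ± 6.27 TPM in post-caerulein and 71.2 ± 2.30 TPM in untreated libraries.

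Among 9 tested mucins, the acceptors of these enzymes, 1 was called with the block: Muc4, a membrane mucin, fell to 2.97, 3.72, 3.48 and 0.357 CPM in post-caerulein 1 to 4, against 56.4, 57.6 and 2.05 CPM in untreated 1 to 3 (log2 fold change -3.80 ± 0.26, adjusted p = 0.00579, edgeR quasi-likelihood). The groups overlapped, because untreated 3 was below post-caerulein 1, 2 and 3, and the group fit gave an adjusted p of 0.292. Over all genes, 0.876% were called lower with the block. Muc1, the most abundant mucin, was at 350 ± 222.5 TPM in post-caerulein and 617 ± 462 TPM in untreated libraries, and Muc5ac, a secreted mucin, at 2.95 ± 3.25 TPM in post-caerulein and 10.2 ± 8.46 TPM in untreated libraries. Muc1 and Muc5ac both spread widely within the groups and were not called.

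Markers of other cell types also differed between libraries. The summed level of 10 gastric mucous markers was 54.0 to 250 CPM in post-caerulein and 11.7 to 70.6 CPM in untreated libraries. The untreated sum was mostly Muc5ac, at 66.8 and 61.9 CPM in untreated 1 and 2. Of the 10, the groups did not overlap for Tff1, Tff2, Tff3, Cldn18 and Gkn1, all higher in post-caerulein libraries, against 4.67% of all genes tested. Gkn1 did not pass the filter and had 1 read in post-caerulein 4. Muc6 and Spdef overlapped, with adjusted p of 0.287 and 0.833 with the block (edgeR quasi-likelihood). Agr2, which did not pass the filter, averaged 0.0176 CPM in post-caerulein and 0.168 CPM in untreated libraries. With the block, Tff1, Tff2, Tff3 and Cldn18 rose, by 3.37, 4.33, 5.56 and 1.37 on the log2 scale, with adjusted p of 0.049, 0.031, 0.0478 and 0.031 (edgeR quasi-likelihood). Tff3 was at 222, 41.2, 80.5 and 14.4 CPM in post-caerulein 1 to 4 and 1.16, 1.31 and 1.56 CPM in untreated 1 to 3. Muc5ac had a log2 fold change of -2.24 with an adjusted p of 0.474 (edgeR quasi-likelihood), and Gkn1 and Gkn2 reached at most 0.421 and 0.280 CPM. The sum of 10 islet markers was 0.610 to 6.09 CPM in post-caerulein and 0.198 to 0.690 CPM in untreated libraries. Acinar markers summed to 2.61 to 11.4 CPM in post-caerulein and 0.907 to 1.89 CPM in untreated libraries. Of these, Ctrb1 was also called with the block, at 5.595 on the log2 scale (adjusted p = 0.0378, edgeR quasi-likelihood). Ctrb1 was at 7.32, 0.971, 2.23 and 7.15 CPM in post-caerulein 1 to 4 and 0.0495, 0.0422 and 0.2225 CPM in untreated 1 to 3. Bhlha15 had -0.162 (adjusted p = 0.887, edgeR quasi-likelihood). Fibroblast and stellate markers summed to 3.45 to 7.90 CPM in post-caerulein libraries, and to 22.6 CPM in untreated 3 but at most 0.396 CPM in untreated 1 and 2. The sum of 8 tuft cell markers was 4.49 to 14.3 CPM in post-caerulein and 4.56 to 21.7 CPM in untreated libraries, highest in post-caerulein 4 and untreated 3, where Dclk1 alone was at 10.3 and 18.3 CPM. The other tuft markers did not follow Dclk1: Trpm5 was lowest in post-caerulein 4, at 0.252 CPM, Avil was lowest of its group in untreated 3, at 2.56 CPM, and Pou2f3 reached at most 0.0743 CPM. Leukocyte markers summed to 13 to 36.8 CPM in post-caerulein and 21.6 to 99.1 CPM in untreated libraries. Cd68 made up most of this sum in every library, at 11.7 to 35.05 CPM in post-caerulein libraries. It was at 24.8, 20.6 and 97.9 CPM in untreated 1 to 3. Csf1r reached at most 1.20 CPM and Ptprc at most 0.105 CPM. Endothelial markers reached at most 5.50 CPM. The part of these cell types in the transferase differences was not tested.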

How the data were processed

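The file headers show raw, unnormalised counts per gene for each library, as the authors deposited them, beside exon coordinates and exonic length. Per the submitters' processing notes, featureCounts (0.6.1) assigned reads on GRCm38 (mm10). No source used here names the aligner or strand setting. The authors' deposited edgeR (3.2.2) table holds log2 values (fold change and average CPM), a likelihood ratio score, p-values and false discovery rates, per the file headers. Groups and replicate numbers come from the sample titles.

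Of 54446 gene IDs, 54409 matched a symbol, version suffixes ignored. The St6galnac2 row is the ID that the deposited table names. Genes were kept by filterByExpr with a minimum count of 10 and a total of 15, scaled by TMM and tested with edgeR 4.0.16 (quasi-likelihood, robust, two-sided), adjusted over 16438 genes, with 0.05 as threshold. CPM uses TMM-scaled library sizes and TPM exonic lengths. The procedure was tested on simulated counts.

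The members, the lists and the block term were chosen with earlier results of these data known. Members were named by a rule on calls, overlap, level and fold change, and the others by role. Alternatives were RLE scaling, other filters, DESeq2 1.42.0, limma-voom 3.58.1, a likelihood ratio test, summed close pairs, the replicate number as a block and each library left out. Chi-square values per gene were 12.9 (untreated 1 and 2) and 10.5 (post-caerulein 2 and 3), above sampling noise, and these libraries were counted separately. Analyses ran in R 4.3.3 and matplotlib 3.10.9.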

Additional observations from a re-analysis of the deposited data

Results flagged for a closer look

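In 3 of 24 transferase genes, 1 of the 4 post-caerulein libraries lay far from the other 3, by a Dixon ratio above its 95% critical value, and chance flags about 5% of groups. Galnt3 was at 203 CPM and Gcnt2 at 204 CPM in post-caerulein 1, the highest of the group for each, with ratios of 0.855 and 0.849. B4galnt2 was at 13.7 CPM in post-caerulein 4, with a ratio of 0.888, and untreated 3 was also the highest of its group for this gene.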

How the results depend on the processing

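In the group fit, the count of members called was 0 (0% of all genes), and it was 2 with no filter on low counts (0.073% of all genes), 4 with DESeq2 (3.12%), 4 with the likelihood ratio test (2.1%) and 4 with the block of the deposited table (1.53%). It lay between 0 and 13 with 1 library left out, where all genes lay between 0% and 6.83%. In the fit with the block, the count was 4 (1.53% of all genes), and it was 9 with no filter (1.91%), 14 with DESeq2 (8.31%), 13 with the likelihood ratio test (7.52%), 0 with close pairs summed (0%) and 17 with the larger block alone (13.8%). It lay between 0 and 17 with 1 library left out, where all genes lay between 0% and 13.5%. Without untreated 3 or post-caerulein 4, this fit also compares only the libraries of the larger block.

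Signs turned only in members that were not called. In the group fit, B4galt1 had a log2 fold change of -0.003 with no filter and -0.03 with limma-voom, and C1galt1 0.04 with close pairs summed. With 1 library left out, St6galnac6 lay between -0.703 and 0.457, Galnt7 between -0.032 and 0.175, C1galt1 between -0.142 and 0.072, B3gnt3 between -0.021 and 0.208, B4galt1 between -0.212 and 0.116, and B4galnt2 between -0.207 and 2.681. In the fit with the block, Fut8 had -0.044 and B4galt1 0.026 with close pairs summed, and St6galnac6 had 0.478 and B4galt1 0.01 in the larger block alone. With 1 library left out, St6galnac6 lay between -0.52 and 0.476, Galnt7 between -0.021 and 0.181, Fut8 between -0.06 and 0.388, B3gnt3 between -0.028 and 0.172, and B4galt1 between -0.205 and 0.071. The cause was not tested.

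Replicate numbers did not pair the libraries: correlations of same-numbered deviations were 0.36, 0.13 and -0.20, and 1 of 3 untreated libraries correlated best with its own number. With the replicate number as a block, without post-caerulein 4, the group fit called 0 members, and C1galt1 had a log2 fold change of 0.075.

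The smaller block holds 1 library per group. Members at or under 3 reads cannot be compared at this depth.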
